A study of Mus musculus with 32 samples.

Results

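RNA from the amygdala of 4 *Kdm5c*-KO mice was compared with that of 4 wild-type (WT) males of the same cross, across all genes counted except the ERCC spike-in rows. These 8 libraries are part of 32 in the series, and were picked by their genotype and tissue labels alone. *Kdm5c*-KO males carried a hemizygous germline deletion in *Kdm5c*, present in every cell, and intact *Kmt2a*, while WT males carried neither mutation. All mice were adult males of a 129xB6 F1 background, from 129S1/SvImJ fathers heterozygous for a *Kmt2a* deletion and C57BL/6J mothers heterozygous for the *Kdm5c* deletion. A further 8 amygdala libraries were used for comparison, 4 of *Kmt2a*-HET mice (1 deleted copy of *Kmt2a*, *Kdm5c* intact) and 4 of double mutants (DM, both mutations), as were the 8 hippocampal libraries of the same WT and *Kdm5c*-KO mice. The amygdala was taken by microdissection as bulk tissue, so fewer cells of a type and less RNA per cell cannot be told apart. Each library was 1 animal, and *p*-values measure the spread between animals.

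KDM5C is an X-linked enzyme that takes methyl groups off lysine 4 of histone H3, a mark found at active promoters, and its loss in humans causes an intellectual disability, often with aggression. In neurons it is known for keeping germline genes silent. These genes are normally used only in testis and ovary, and are held off in the body's other cells by complexes that include the factors E2F6, MGA and MAX, by DNA methylation and by removal of H3K4 methylation. The amygdala is a group of nuclei of the temporal lobe that handles fear and social behaviour.

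The 8 libraries held between 19215489 and 24198259 counts on genes, with 21731 to 23216 genes detected, so that 3 counts, the floor used here, equal 0.124 to 0.156 CPM (counts scaled to a common library total). WT replicate 1 stood apart from the other 7 libraries on the first principal component (24 against -11.6 to 1.71), which held 40.0% of the variance when the 500 genes of highest variance were used. Summed markers of excitatory neurons reached 73148 normalised counts in that library against 29527 to 49772 in the other 7, with oligodendrocyte markers at 59460.4 against 80454 to 141697. Markers of the central amygdala summed to 13684 to 17110.3 in *Kdm5c*-KO and 12811 to 15684 in WT, and those of striatum, a neighbouring region, to 13467 to 80866 and 19475 to 93524. All 14 central amygdala and all 12 excitatory markers had counts in these libraries. Among the marker lists, WT replicate 1 had the lowest central amygdala sum, and the pituitary sum of *Kdm5c*-KO replicate 3 was 1153 against 51.6 to 341 in the other 7. How far dissection contributed to any difference was not tested.

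**Figure D1:**
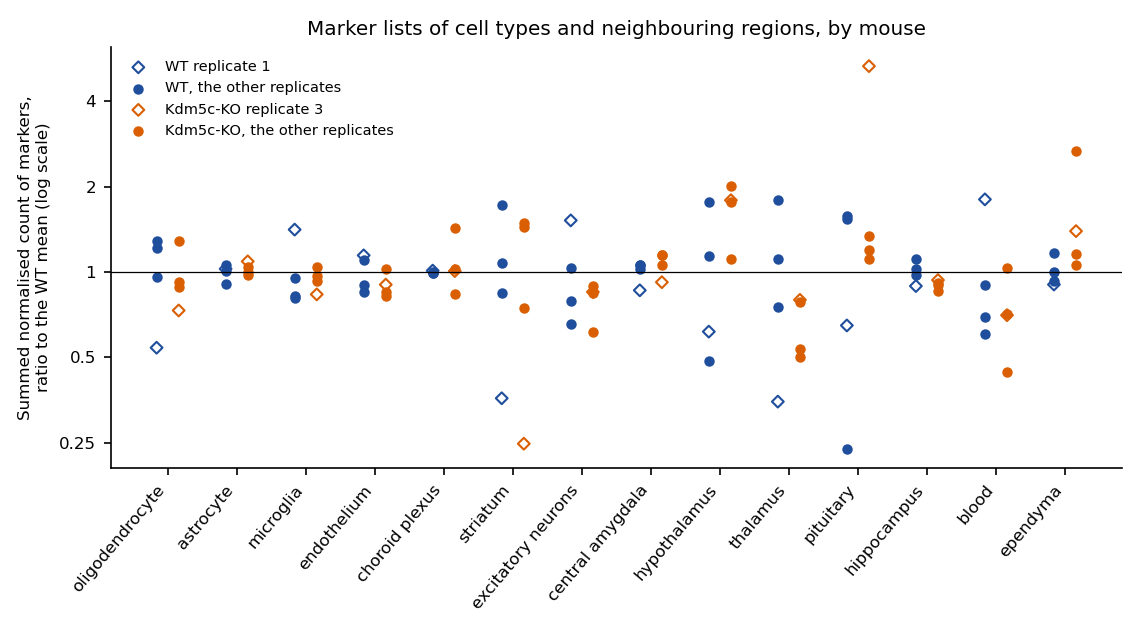
Summed normalised counts of marker lists for cell types and neighbouring brain regions, as a ratio to the WT mean on a log axis, with 1 point per mouse (blue WT, orange *Kdm5c*-KO, open diamonds WT replicate 1 and *Kdm5c*-KO replicate 3). *Kdm5c*-KO and WT points overlap in each of the 14 marker lists, and *Kdm5c*-KO replicate 3 is the extreme point of the pituitary list at 1153 summed counts.

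The targeted gene was examined first. *Kdm5c* (mm10, chromosome X, 152233020 to 152274535, plus strand) had normalised counts, in the order of replicate numbers, of 1248, 1268, 1434 and 1251 in *Kdm5c*-KO and 1227, 1564, 1664 and 2026 in WT. The *Kdm5c*-KO values lay close together, and WT replicate 1 fell below all of them, so the groups overlapped (1300.0 ± 89.7 against 1620.5 ± 329, mean ± SD, n = 4). The difference did not pass the test (log2 fold change -0.32 ± 0.12 SE, DESeq2 adjusted *p* = 0.467), but with WT replicate 1 left out it passed (log2 fold change -0.43, DESeq2 adjusted *p* = 0.00341). The allele is a deletion of targeted exons, reads over these exons were not analysed here, and a count over the whole gene also includes the remaining exons.

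At the transcript level, given without a test, *Kdm5c*-203 had 547, 715, 980.1 and 684 counts in *Kdm5c*-KO and 659.7, 749.6, 663 and 991 in WT. *Kdm5c*-201 had 125, 119, 0 and 87.8 and 203, 312, 166 and 179, and *Kdm5c*-202 had 551, 389, 442 and 442 and 349, 485, 814 and 840.4. The 201 form thus showed no overlap between groups, with every *Kdm5c*-KO value below every WT value, while the 203 and 202 forms overlapped.

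Of 19056 genes tested, 144 passed the threshold of DESeq2 (adjusted *p* under 0.1) between *Kdm5c*-KO and WT. Of these 138 were higher in *Kdm5c*-KO (0.724% of the genes tested) and 6 were lower (0.0315%). The 138 had a median log2 fold change of 1.06, against -0.01 over all genes tested, with 77 above 1 and 25 above 2. In 123 of the 138 every *Kdm5c*-KO mouse was above every WT mouse, and in 5 of the 6 every one was below, while 2.65% of all tested genes had groups that did not overlap in either direction. The share of genes that were higher was 0.893% of the 3921 genes with a WT mean under 20, 1.23% of the 3084 from 20 to 100, 1.03% of the 4545 from 100 to 500, and 0.24% of the 7506 above that. Protein-coding genes made up 84.1% of the higher genes and 82.0% of the tested genes.

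The number of genes called depended on how the 8 libraries were modelled. The quasi-likelihood test of edgeR called 69, all higher. Spike-in scaling called 22, all higher and all among the 144, while all 138 higher genes kept a positive log2 fold change with it. The spike-in share of counts was uneven, at 0.12 to 0.511% in WT libraries and 0.158 to 0.336% in *Kdm5c*-KO, and its part in the loss of calls was not tested. The replicate number was also used as a block over all 16 amygdala libraries. DESeq2 then called 518 (330 higher and 188 lower), of which 327 had a mean under 4 counts. With a filter on low counts it called 166 (157 higher and 9 lower). Without WT replicate 1 DESeq2 called 214 (175 higher and 39 lower), among them 108 of the 138, without WT replicate 2 it called 274 (204 and 70), without WT replicate 3 it called 95 (92 and 3), and 72 of the 144 were called in each of the 8 fits that left out 1 library.

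**Figure D2:**
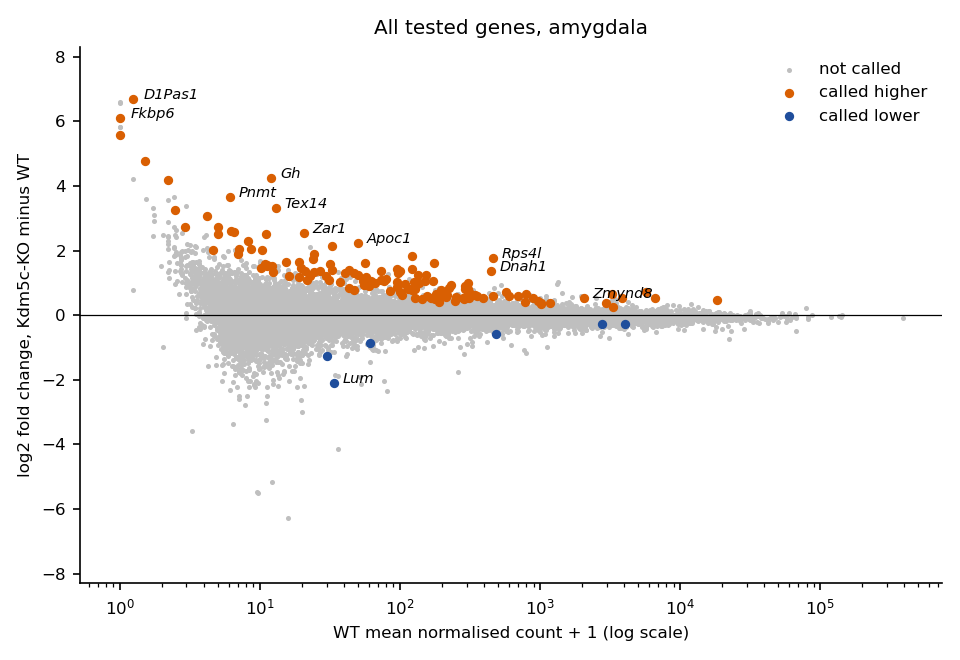
Log2 fold change between *Kdm5c*-KO and WT amygdala against the WT mean normalised count (log axis, 1 added), with 1 point per gene, grey for genes not called, orange for called higher and blue for called lower. The called genes lie almost all above 0 at every level, from *D1Pas1* near 0 counts in WT to *Zmynd8* near 2053, and *E130208F15Rik*, at 21.69, lies outside the axis.

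Germline genes were the list with the most calls. Of 44 germline genes listed, 7 rose and none fell, and 24 were given no adjusted *p* (0.724% of all tested genes rose). Of the 7, *D1Pas1*, *Fkbp6*, *Cyct* and *Stk31* had WT means of at most 1.94 counts, so whether such members passed the filter on low counts depended on the libraries without *Kdm5c*, and nothing is read from the share of tested members that rose. edgeR called 4 of the list, ERCC scaling 4 and the replicate block 8 (6 after genes of low count were filtered), and 4 of the 7 were called in every fit that left out 1 library. Of the 24 without an adjusted *p*, 7 had no count in any of the 8 libraries. Summed over the list, normalised counts were 578 to 821 in *Kdm5c*-KO and 294 to 420.3 in WT, with no overlap. This sum includes the 7 called genes, so it is no separate evidence for the rest of the list. The meiosis list had 20 tested members of 33, a median of 0.09 and no gene called by DESeq2 or edgeR (2 higher and 0 lower at an unadjusted *p* under 0.05), and the oocyte list had 5 of 21 tested and 1 called, *Zar1*. Of all tested genes, 3.4% were higher and 2.29% lower at an unadjusted *p* under 0.05.

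*Tex14* (ENSMUSG00000010342.16, chromosome 11, 87405065 to 87555823, plus strand), which builds the bridges that join dividing germ cells, had normalised counts of 128, 116, 147 and 88.8 in *Kdm5c*-KO and 7.91, 10.7, 17.2 and 12.4 in WT. Every knockout mouse was above 17.2, the highest WT value, and the group means, 119.9 ± 24.3 and 12.1 ± 3.92 (SD, n = 4), differed 9.93-fold (log2 fold change 3.32 ± 0.32 SE, DESeq2 adjusted *p* = 1.64e-21). *Zar1* (chromosome 5, 72576806 to 72581254, minus strand), an oocyte protein that handles maternal RNA, had 110.4, 124, 117 and 107 in *Kdm5c*-KO and 9.89, 22.3, 32.3 and 14.3 in WT. The 4 *Kdm5c*-KO values of *Zar1* spread little (SD 7.37), and lay 5.8-fold above WT in the means (log2 fold change 2.55 ± 0.30 SE, DESeq2 adjusted *p* = 2.64e-13).

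*D1Pas1* (chromosome 1, 186967416 to 186970627, plus strand), a testis RNA helicase with near-identical family members on X and Y, so that its reads may be shared with them, had 17.8, 20.6, 69.5 and 18 in *Kdm5c*-KO and 0, 0, 0 and 0.956 in WT. In WT, 3 mice had no count at all, 1 had under 1 normalised count, and replicate 3 stood above the other *Kdm5c*-KO mice. The test passed at a DESeq2 adjusted *p* of 1.16e-05. *Fkbp6* (chromosome 5, 135291704 to 135350044, minus strand), which acts in making piRNAs, was at 0 in all 4 WT mice and had 22.6, 3.92, 16.4 and 7.4 in *Kdm5c*-KO, at least 4.19-fold higher in the mean against a floor of 3 counts per library (DESeq2 adjusted *p* = 7.31e-04).

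*Cyct* (chromosome 2, 76353942 to 76360450, minus strand), the testis form of cytochrome c, had 20.2, 6.86, 11.6 and 15.9 in *Kdm5c*-KO and 0.989, 0, 1.08 and 0 in WT (DESeq2 adjusted *p* = 0.00755). *Stk31* (chromosome 6, 49395604 to 49469501, plus strand), a testis kinase with a tudor domain, had 9.5, 14.7, 23.2 and 4.23 in *Kdm5c*-KO and 1.98, 3.88, 0 and 1.91 in WT. These small counts still kept the groups of *Cyct* and *Stk31* apart, with the lowest *Stk31* value of *Kdm5c*-KO at 4.23 and the highest of WT at 3.88 (log2 fold change 2.72 ± 0.77 SE, DESeq2 adjusted *p* = 0.0654). *Rnf17* (chromosome 14, 56402581 to 56525032, plus strand), a tudor protein of spermatids, had 26.1, 18.6, 29 and 46.5 in *Kdm5c*-KO and 7.91, 5.83, 11.9 and 15.3 in WT (log2 fold change 1.55 ± 0.42 SE, DESeq2 adjusted *p* = 0.0401). *Xlr3a* (chromosome X, 73086293 to 73097095, minus strand), from an X-linked multicopy family in which reads may be split, had 157, 78.4, 143 and 71.9 in *Kdm5c*-KO and 34.6, 40.8, 55 and 39.2 in WT (log2 fold change 1.41 ± 0.39 SE, DESeq2 adjusted *p* = 0.0585). Neither *Rnf17* nor *Xlr3a* overlapped between the groups, and both lost the call in edgeR (adjusted *p* = 0.147 and 0.299), which did not test *Stk31*. Each of these 3 kept the call in at most 3 of the 8 fits without 1 library. Members that did not pass included *Ddx4*, a helicase of germ cells, with 73.6, 81.4, 71.5 and 59.2 in *Kdm5c*-KO and 113, 37.9, 33.4 and 35.4 in WT, where WT replicate 1 was the highest of all 8, and *Dazl*, an RNA-binding protein, with a log2 fold change of -0.21. In the meiosis list, *Sycp3*, of the synaptonemal complex, had 41.6, 34.3, 24.1 and 22.2 in *Kdm5c*-KO and 13.8, 19.4, 5.39 and 18.2 in WT, with no overlap but no call (DESeq2 adjusted *p* = 0.395).

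The 250 bases before the transcription start of 6 of these genes are shown because these genes of the germline and oocyte lists rose and have an entry in RefSeq (GRCm38.p6), and because E2F6 and MAX with MGA are the factors known to hold such promoters off. Capitals mark GCGGGA, the core of E2F6 sites, or its complement TCCCGC, and CACGTG, the E-box. The coordinates are chr11:87404815-87405064, plus strand for *Tex14*, chr1:186967166-186967415, plus strand for *D1Pas1*, chr2:76360454-76360703, minus strand for *Cyct*, chr5:135350045-135350294, minus strand for *Fkbp6*, chr6:49395289-49395538, plus strand for *Stk31* and chr5:72581085-72581334, minus strand for *Zar1*.
Tex14: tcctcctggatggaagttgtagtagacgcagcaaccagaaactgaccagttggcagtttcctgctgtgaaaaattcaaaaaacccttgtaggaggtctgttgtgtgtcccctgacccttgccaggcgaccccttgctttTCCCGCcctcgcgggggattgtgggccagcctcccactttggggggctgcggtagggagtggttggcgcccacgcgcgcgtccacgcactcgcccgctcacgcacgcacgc
D1Pas1: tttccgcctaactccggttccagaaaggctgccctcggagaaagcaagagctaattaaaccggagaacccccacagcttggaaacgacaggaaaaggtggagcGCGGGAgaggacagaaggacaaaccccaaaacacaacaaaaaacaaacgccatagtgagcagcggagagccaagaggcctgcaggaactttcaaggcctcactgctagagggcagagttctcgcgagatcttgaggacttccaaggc
Cyct: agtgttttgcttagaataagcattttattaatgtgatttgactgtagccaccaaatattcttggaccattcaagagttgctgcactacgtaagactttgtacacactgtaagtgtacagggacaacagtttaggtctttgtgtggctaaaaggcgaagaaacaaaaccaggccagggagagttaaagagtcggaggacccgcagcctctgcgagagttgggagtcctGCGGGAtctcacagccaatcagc
Fkbp6: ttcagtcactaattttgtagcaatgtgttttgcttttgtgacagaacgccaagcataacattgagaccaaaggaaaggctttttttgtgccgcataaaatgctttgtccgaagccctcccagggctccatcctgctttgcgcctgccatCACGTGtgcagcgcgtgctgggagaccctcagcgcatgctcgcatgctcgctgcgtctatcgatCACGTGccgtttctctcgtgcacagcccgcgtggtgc
Stk31: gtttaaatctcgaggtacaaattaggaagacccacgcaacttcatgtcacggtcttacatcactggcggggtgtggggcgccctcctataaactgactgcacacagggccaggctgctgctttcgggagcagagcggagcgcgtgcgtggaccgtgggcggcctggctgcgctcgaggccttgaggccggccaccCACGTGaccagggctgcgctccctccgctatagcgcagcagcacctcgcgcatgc
Zar1: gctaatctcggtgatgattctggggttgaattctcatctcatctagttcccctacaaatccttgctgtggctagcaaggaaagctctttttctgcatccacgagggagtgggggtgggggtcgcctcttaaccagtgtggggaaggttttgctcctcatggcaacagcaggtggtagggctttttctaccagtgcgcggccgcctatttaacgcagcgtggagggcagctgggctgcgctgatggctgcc

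GCGGGA or its complement stood in the windows of *Tex14*, *D1Pas1* and *Cyct*, CACGTG stood in those of *Fkbp6* and *Stk31*, and neither stood in that of *Zar1* or of *Xlr3a*, the other called member with an entry. In the same 250 bases, GCGGGA stood in 31.4% of all tested genes with an entry and CACGTG in 9.28%, so nothing is read from these members. *Fkbp6* and *Stk31* each have 2 starts in the table, and 1 of each is shown. Over all higher genes the letters were searched on both strands, each motif for itself. Of the 130 promoters found for 101 of the 138 higher genes, 23.8% held GCGGGA (Wilson 95% interval 17.3 to 31.9) in the 300 bases from 250 before to 50 after the start, against 32.1% of the promoters of all tested genes and 20% of the 32851 promoters in the table. CACGTG was in 13 of the 130 (interval 5.94 to 16.4%), against 9.27% and 7.15%. A match of letters is a description and not evidence of binding.

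Ranked by adjusted *p*, the first 25 genes whose groups did not overlap were all higher in *Kdm5c*-KO, and 21 of them were protein-coding. Each was called by edgeR and in each fit without 1 library, and 10 were called with spike-in scaling. Apart from *Tex14*, *Zar1* and *D1Pas1*, they held enzymes, membrane receptors, secreted proteins and nuclear proteins. Of the 25, 6 overlap another gene on the same strand and 14 an antisense gene, and the counting is not stated to use strand.

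**Figure D3:**
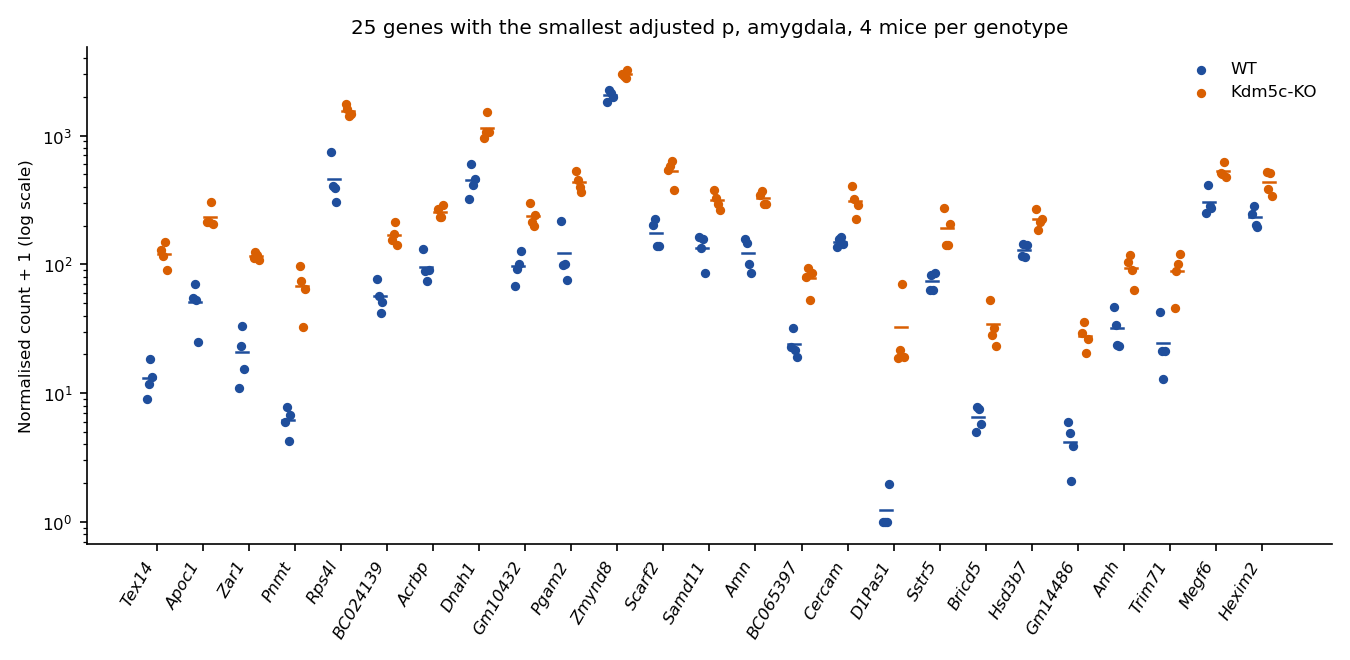
Normalised counts (1 added, log axis) of the 25 genes with the smallest adjusted *p*, with 1 point per mouse for WT (blue) and *Kdm5c*-KO (orange) and bars for the means of 4. In every gene all *Kdm5c*-KO points lie above all WT points, from *Tex14* at 88.8 or more against 17.2 or less to *Zmynd8* at 2806 or more against 2253 or less.

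*Pnmt* (chromosome 11, 98386450 to 98388181, plus strand), the enzyme that turns noradrenaline into adrenaline, had normalised counts of 96.2, 73.5, 31.9 and 63.4 in *Kdm5c*-KO and 4.95, 6.8, 3.23 and 5.74 in WT. Knockout mice differed among themselves by up to 96.2 against 31.9, and all were far above WT (12.8-fold in the means, log2 fold change 3.66 ± 0.44 SE, DESeq2 adjusted *p* = 4.92e-13). It was the only called gene of 11 tested in the catecholamine list, which had a median log2 fold change of 0.29. *Th*, the first enzyme of that pathway, had 359, 296, 355 and 204 in *Kdm5c*-KO and 35.6, 282, 154 and 112 in WT, with overlapping groups (DESeq2 adjusted *p* = 0.364).

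*Apoc1* (chromosome 7, 19689481 to 19692660, minus strand), an apolipoprotein of lipid transport, had 211, 214, 302 and 204 in *Kdm5c*-KO and 53.4, 68.9, 51.7 and 23.9 in WT (log2 fold change 2.24 ± 0.27 SE, DESeq2 adjusted *p* = 2.64e-13). It was the 1 called gene of 14 tested apolipoprotein genes. *Pgam2* (chromosome 11, 5801640 to 5803733, minus strand), the muscle form of a glycolytic mutase, had 528, 451, 395 and 363 in *Kdm5c*-KO and 217, 97.1, 99.2 and 74.6 in WT (log2 fold change 1.83 ± 0.25 SE, DESeq2 adjusted *p* = 8.02e-10). Neither gene overlapped between the groups, although WT replicate 1 was the highest WT mouse for *Pgam2*. *Hsd3b7* (chromosome 7, 127800604 to 127803802, plus strand), an enzyme of bile acid synthesis, had 268, 185, 212 and 223 in *Kdm5c*-KO and 116, 142, 112 and 141 in WT (log2 fold change 0.80 ± 0.15 SE, DESeq2 adjusted *p* = 7.18e-05).

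*Rps4l* (chromosome 6, 148354656 to 148355598, plus strand), a transcribed processed pseudogene that lies antisense within *Tmtc1*, had 1751, 1614, 1428 and 1461 in *Kdm5c*-KO and 739, 406, 389 and 301 in WT. Its means were 3.41-fold apart (log2 fold change 1.77 ± 0.22 SE, DESeq2 adjusted *p* = 2.33e-12). Its parent gene *Rps4x*, a ribosomal protein gene, had a log2 fold change of -0.02 and *Tmtc1* -0.07, and neither passed the test, with the limit that reads of near-identical copies can be misplaced.

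*Zmynd8* (chromosome 2, 165784152 to 165899016, minus strand), a reader of acetylated and methylated histones, had 3022, 2922, 2806 and 3250.1 in *Kdm5c*-KO and 1819.8, 2253, 2129 and 2009 in WT, a difference of 1.46-fold (log2 fold change 0.55 ± 0.08 SE, DESeq2 adjusted *p* = 5.50e-09). Its main transcript, *Zmynd8*-203, had 2178, 1847, 1783 and 2133 and 1269.9, 1524, 1426 and 1396. *Trim71* (chromosome 9, 114507133 to 114564369, minus strand), an RNA-binding protein of stem and germ cells, had 45.1, 88.2, 100.4 and 118 in *Kdm5c*-KO and 41.5, 20.4, 11.9 and 20.1 in WT, the lowest knockout value being 45.1 and the highest WT value 41.5 (log2 fold change 1.91 ± 0.36 SE, DESeq2 adjusted *p* = 1.13e-04). *Hexim2* (chromosome 11, 103132429 to 103139876, plus strand), an inhibitor of transcription elongation, had 518, 380.4, 512 and 339 in *Kdm5c*-KO and 246, 281, 203 and 192 in WT (log2 fold change 0.92 ± 0.18 SE, DESeq2 adjusted *p* = 1.32e-04).

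Among receptors and secreted proteins, *Sstr5* (chromosome 17, 25489875 to 25497288, minus strand), a somatostatin receptor, had 274, 140.2, 139 and 203 in *Kdm5c*-KO and 62.3, 81.6, 62.5 and 85.1 in WT (log2 fold change 1.37 ± 0.24 SE, DESeq2 adjusted *p* = 1.16e-05). *Amh* (chromosome 10, 80805243 to 80807648, plus strand), the hormone that makes the Müllerian duct regress, had 103, 118, 89.8 and 62.4 in *Kdm5c*-KO and 45.5, 33, 22.6 and 22 in WT, 3.03-fold apart in the means (DESeq2 adjusted *p* = 9.20e-05). *Scarf2* (chromosome 16, 17797282 to 17808293, plus strand), a scavenger receptor, had 534, 575, 634 and 379 in *Kdm5c*-KO and 201, 222, 137 and 139 in WT, 3.04-fold apart (DESeq2 adjusted *p* = 1.80e-08). For all these genes the lowest *Kdm5c*-KO value exceeded the highest WT value. *Amn*, which takes part in vitamin uptake in gut and kidney, had 343, 372, 295 and 293 in *Kdm5c*-KO and 155, 145, 99.2 and 85.1 in WT (log2 fold change 1.43 ± 0.22 SE, DESeq2 adjusted *p* = 2.38e-07), and *Megf6*, a protein with many EGF repeats, had 512, 503, 621 and 479 in *Kdm5c*-KO and 249, 411, 281 and 274 in WT (log2 fold change 0.80 ± 0.15 SE, DESeq2 adjusted *p* = 1.24e-04).

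The other genes of the 25 span log2 fold changes from 1.05 to 3.06. *Acrbp*, a protein of the sperm acrosome, had 269.5, 233, 231 and 288 in *Kdm5c*-KO and 129.6, 88.4, 73.3 and 88.9 in WT (log2 fold change 1.42 ± 0.19 SE, DESeq2 adjusted *p* = 7.58e-11). *BC024139*, which overlaps *Eppk1*, was at 1.61, *Samd11*, a nuclear protein with a SAM domain, at 1.23, *Cercam* at 1.05 and *Bricd5* at 2.59. The noncoding genes were *Gm10432* at 1.31, *BC065397*, on X, at 1.75 and *Gm14486* at 3.06. Their DESeq2 adjusted *p* ran from 2.33e-12 (*BC024139*) to 7.71e-05 (*Gm14486*).

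*Dnah1* (chromosome 14, 31260375 to 31323896, minus strand), a heavy chain of the dynein that bends motile cilia and sperm tails, had 961, 1069.5, 1519.9 and 1063 in *Kdm5c*-KO and 318, 597, 413 and 459 in WT (log2 fold change 1.37 ± 0.19 SE, DESeq2 adjusted *p* = 5.69e-10). It was the 1 called gene of 36 tested in the motile cilia list, in which 31 had a positive log2 fold change (46.5% of all tested genes did) and the median was 0.35 (-0.01 over all genes). At an unadjusted *p* under 0.05 the list had 8 higher and 0 lower, where 3.4% and 2.29% of all tested genes were, and the replicate block called 2. Summed over the list, *Dnah1* included, counts were 4556 to 5690.3 in *Kdm5c*-KO and 3417 to 4071 in WT. Markers of ependyma, whose cells carry motile cilia, moved in the same direction without a called gene: 8 of 9 had a positive log2 fold change, the median was 0.79, and the sums were 653 to 1647 and 556 to 717, with overlap and with *Kdm5c*-KO replicate 1 highest. *Foxj1*, the master regulator of motile cilia, was at 663, 238, 250.1 and 281 in *Kdm5c*-KO and 143, 231, 208 and 247 in WT (DESeq2 adjusted *p* = 0.689). All 4 *Kdm5c*-KO mice had more *Dnah1* than every WT mouse, and its call held without each library in turn. The cilia and ependyma lists share *Foxj1* and *Cfap126*, so they are not separate sets. The part of ependyma in the values of the cilia list was not tested.

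The 3 called genes with the highest WT means changed little in proportion. *Gaa*, the lysosomal enzyme that degrades glycogen, had 25772, 25116, 29543 and 22452 in *Kdm5c*-KO and 15228, 24094, 17318 and 17088 in WT (log2 fold change 0.48 ± 0.13 SE, DESeq2 adjusted *p* = 0.0438). *6330403K07Rik* had 10199.7, 8637, 11170.2 and 8248 in *Kdm5c*-KO and 6709.6, 7980.1, 6691 and 4963 in WT (log2 fold change 0.54 ± 0.14 SE, DESeq2 adjusted *p* = 0.0244). *Baiap3*, which acts in the cycling of dense-core vesicles, had 8539.7, 8915, 12547 and 7232 in *Kdm5c*-KO and 4304, 8399.5, 5159 and 4989 in WT (log2 fold change 0.70 ± 0.19 SE, DESeq2 adjusted *p* = 0.0499). For *6330403K07Rik* the lowest *Kdm5c*-KO value was above the highest WT value, and for *Gaa* and *Baiap3* the groups overlapped, with WT replicate 2 highest in WT. All 3 lost the call in edgeR (adjusted *p* = 0.195, 0.156 and 0.245), and had log2 fold changes of 0.06, 0.03 and -0.10 between DM and *Kmt2a*-HET. Markers of hypothalamus summed to 4579 to 8293 in *Kdm5c*-KO and 2004 to 7243 in WT. They summed to 2562, 2554, 2663 and 8857 in DM and to 5880 to 7561 in *Kmt2a*-HET. Their part in the values of both comparisons was not tested.

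Calls among markers of other cells were few. *Siglech*, a lectin of microglia, had 317, 328, 278 and 337 in *Kdm5c*-KO and 267, 164, 209 and 213 in WT (log2 fold change 0.56 ± 0.14 SE, DESeq2 adjusted *p* = 0.0203), and was the 1 called gene (edgeR adjusted *p* = 0.138) of 11 microglial markers, of which 3 had a positive log2 fold change and whose sums were 8700.1 to 10847 and 8482 to 14718. *Gh*, growth hormone, had 125, 113, 523 and 86.7 in *Kdm5c*-KO and 36.6, 4.85, 1.08 and 1.91 in WT (log2 fold change 4.25 ± 1.23 SE, DESeq2 adjusted *p* = 0.0799). Its knockout values ran from 86.7 to 523 and all lay above WT. *Prl*, prolactin, was highest in the same replicate 3, at 103 against 4.75 to 8.82 in the other *Kdm5c*-KO mice. *Gh* lost the call in 7 of 8 fits without 1 library. *E130208F15Rik*, outside the naming rule and chosen after its values were seen, was called from 1 library, with 104, 0, 0 and 0 in *Kdm5c*-KO and 0, 0, 0 and 0 in WT.

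The 6 genes that were lower in *Kdm5c*-KO were from unrelated families. *Lum* (chromosome 10, 97565128 to 97572703, plus strand), which encodes the proteoglycan lumican of connective tissue, had 13.1, 3.92, 7.72 and 6.34 in *Kdm5c*-KO and 52.4, 29.1, 12.9 and 37.3 in WT. The highest *Kdm5c*-KO value was just above the lowest WT value (log2 fold change -2.11 ± 0.50 SE, DESeq2 adjusted *p* = 0.00586). *Pik3r6*, an adaptor of a PI3-kinase, had 35.6, 26.5, 32.8 and 37 in *Kdm5c*-KO and 79.1, 55.3, 55 and 49.7 in WT (log2 fold change -0.86 ± 0.24 SE, DESeq2 adjusted *p* = 0.0445), and *Gm37696*, a noncoding gene antisense to *Rap2b*, had 10.7, 12.7, 14.5 and 10.6 in *Kdm5c*-KO and 30.7, 26.2, 33.4 and 25.8 in WT (log2 fold change -1.25 ± 0.36 SE, DESeq2 adjusted *p* = 0.082). *Src*, a tyrosine kinase, and *Dagla*, which makes an endocannabinoid, fell by less, with 3499, 3259, 3385 and 3229 in *Kdm5c*-KO and 4631, 3547, 4126 and 3851 in WT for *Src* and 2267, 2376, 2109.9 and 2462 in *Kdm5c*-KO and 2686, 2555, 3213 and 2669 in WT for *Dagla* (log2 fold changes -0.27 and -0.27, DESeq2 adjusted *p* = 0.0662 and 0.099). *Pcdhga9* belongs to the clustered protocadherins, which share some exons, and reads over these shared exons cannot be told apart. It had 294, 329, 335 and 352 in *Kdm5c*-KO and 479.7, 399, 496 and 576 in WT (log2 fold change -0.57 ± 0.14 SE, DESeq2 adjusted *p* = 0.0091). Groups overlapped for *Lum* alone, and edgeR called none of the 6 (adjusted *p* of 0.101 or more). With the replicate block, *Gm37696* and *Dagla* lost the call (DESeq2 adjusted *p* = 0.119 and 0.114).

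No gene of the neuronal and chromatin lists that follow was called by DESeq2 or edgeR. The glutamate list (39 tested) had a median log2 fold change of -0.09, the GABA list (28) -0.00, the neuropeptide list (38) 0.11 and the monoamine and peptide receptor list (42) 0.01. For activity-induced genes (26) it was -0.21, and for dendrite and spine genes (36) -0.07, with 3 and 5 positive values. At an unadjusted *p* under 0.05, 2 glutamate genes were lower, 2 GABA genes higher and 1 lower, 7 neuropeptide genes higher, 1 receptor gene higher and 1 lower, 1 activity-induced and 2 spine genes lower, where the shares over all tested genes were 3.4% higher and 2.29% lower. The excitatory neuron markers, all 12 of them negative, had a median of -0.40, and WT replicate 1 was their highest library. Imprinted genes (35) were at 0.16, interferon and MHC genes (22) at -0.04 and calcium channel gamma subunits (8) at -0.14, with 3 imprinted genes higher, and 1 interferon or MHC gene higher and 2 lower, at an unadjusted *p* under 0.05. The summed calcium channel gamma subunits were 10677 to 11997 in *Kdm5c*-KO and 12154 to 13388 in WT, lower without overlap. Factors that hold germline genes off (24) were at 0.02, and writers and erasers of H3K4 methylation (31), *Kdm5c* included, at 0.01, where 0 and 1 (lower) had an unadjusted *p* under 0.05. With the replicate block, 1 GABA gene, 1 imprinted gene and 1 marker each of astrocytes, central amygdala and ependyma were called, of which the imprinted gene list and the astrocyte list kept 1 call each with the filter on low counts and the others had 0. The study picked 10 genes by their rescue in DM, from results of amygdala and hippocampus. The samples used here were among those, so these genes are no independent evidence. Of the 10, 9 were tested in the amygdala and none was called (median 0.11, 1 higher at an unadjusted *p* under 0.05).

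Other marker lists had no called gene. Their medians were 0.06 for oligodendrocytes, 0.08 for astrocytes, -0.13 for endothelium, -0.14 for choroid plexus, -0.03 for striatum, 0.10 for central amygdala, 0.33 for hypothalamus, -0.56 for thalamus, -0.17 for hippocampus and -0.40 for blood. The *Kdm5c*-KO and WT sums of each overlapped. DESeq2 and edgeR called none, and the unadjusted *p* was under 0.05 for 4 of 14 central amygdala markers, all higher, for 3 of 12 excitatory markers, all lower (3.4% of all tested genes were higher and 2.29% lower), and for at most 1 gene of each of the others except ependyma, with 4 higher.

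**Figure D4:**
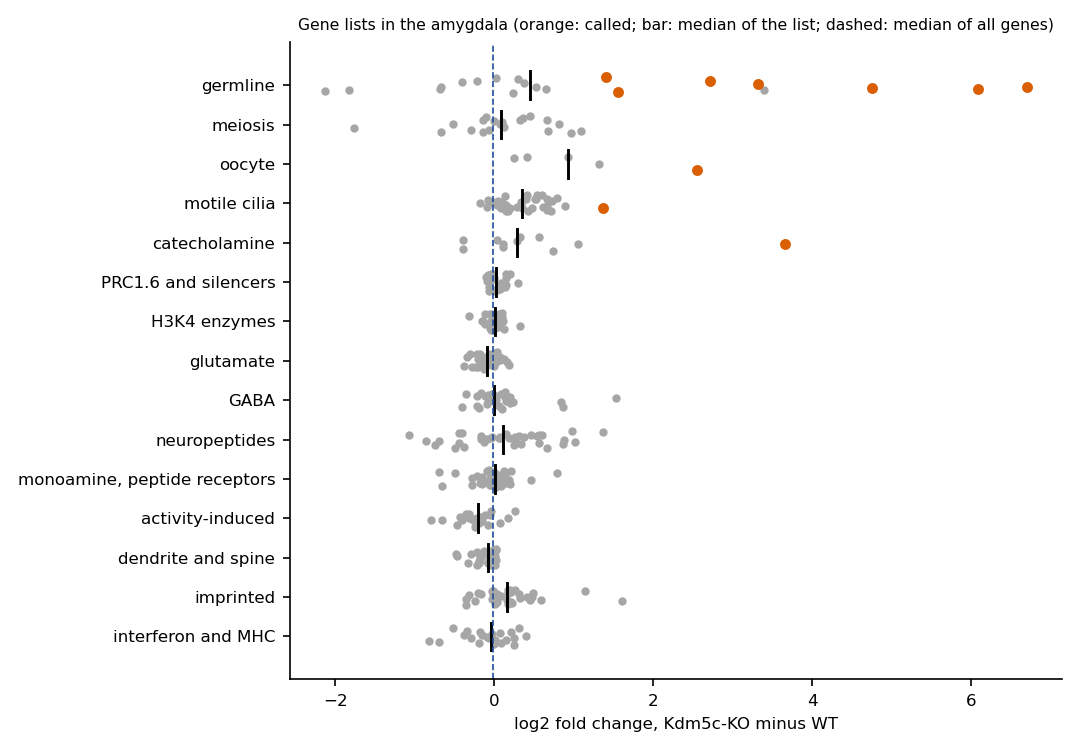
Log2 fold changes between *Kdm5c*-KO and WT amygdala of the tested members of 15 gene lists, with called genes in orange, black bars for list medians and a dashed line for the median of all tested genes (-0.01). The 7 called germline genes lie from 1.41 to 6.71, whereas the glutamate, GABA and spine lists hold no called gene.

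Genes beside *Kdm5c* on X were described because they are inherited with the deletion. Within 10 Mb of *Kdm5c*, 78 genes were tested and 3 were called (3.85%), all higher, with a median log2 fold change of -0.01 over the 78. *Tspyl2*, a nucleosome assembly family gene 0.0859 Mb from *Kdm5c*, had 3859, 3874, 4363 and 3501 in *Kdm5c*-KO and 2861, 3635, 2781 and 2641 in WT, with overlap (log2 fold change 0.39 ± 0.11 SE, DESeq2 adjusted *p* = 0.0499). *Map3k15*, a kinase 7.8 Mb away, had 102, 180.4, 205 and 125 in *Kdm5c*-KO and 62.3, 112, 63.6 and 50.7 in WT, also with overlap (log2 fold change 1.09 ± 0.27 SE, DESeq2 adjusted *p* = 0.0168). *Kcne1l*, a potassium channel subunit on the other side, had 339.6, 242, 294 and 269 in *Kdm5c*-KO and 165, 221, 204 and 178 in WT, with no overlap (log2 fold change 0.57 ± 0.15 SE, DESeq2 adjusted *p* = 0.029). None of the 3 was called by edgeR. Over the whole X, 8 of 612 tested genes were higher (1.31%), against 130 of 18396 on the autosomes (0.707%).

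The loss of *Kdm5c* was next compared in separate mice, DM against *Kmt2a*-HET, in which *Kmt2a* is heterozygous on both sides. The 2 comparisons share no libraries, but sit in 1 fit of 16 libraries with a common estimate of the spread. DESeq2 called 138 genes higher of 19620 tested (0.703%) and 20 lower. Among the genes called higher there were 6 of 12 choroid plexus markers. Their summed counts were 45225, 1553, 8941 and 1208 in DM and 1443 to 1615 in *Kmt2a*-HET, so that replicates 1 and 3 of DM stood apart. None of the 12 was among the 138 genes higher in *Kdm5c*-KO. Pituitary markers summed to 118 to 233 in DM and 354 to 461 in *Kmt2a*-HET. Central amygdala markers summed to 13918 to 15082 and 15192.5 to 16234. Both were lower in DM without overlap, and the sums of every other marker list overlapped. The part of these markers in the comparison was not tested. Of the 138 genes higher in *Kdm5c*-KO, all were tested there, 131 had a positive log2 fold change (50.6% of all genes tested there did), 64 were called higher (46.4%) and none was called lower. In 90 of them every DM mouse was above every *Kmt2a*-HET mouse, as in 3.27% of all genes tested there. Their median log2 fold change was 0.65 in DM against *Kmt2a*-HET and 1.06 in *Kdm5c*-KO against WT, the comparison that chose them. All 6 lower genes were negative and *Lum* was called. With spike-in scaling the median of all genes in this comparison was -0.36 and 6 genes were called, all higher.

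*Tex14* had 119, 137, 125 and 162 in DM and 10.4, 9.03, 11.5 and 26.9 in *Kmt2a*-HET (log2 fold change 3.22, against 3.32 between *Kdm5c*-KO and WT). *D1Pas1* had 43.3, 18.2, 16.9 and 24.8 in DM and was at 0 in all 4 *Kmt2a*-HET mice. *Pnmt* had 109, 108, 88.5 and 74.3 and 9.54, 3.39, 8.87 and 11.1, and *Rps4l* 1948, 1345, 1334 and 1859.6 and 466, 399, 416 and 317. Of the first 25 genes by adjusted *p*, 21 were called here, and the others were *Bricd5*, *Hsd3b7*, *Megf6* and *Hexim2*. *Hsd3b7* had 156, 181, 164 and 196 in DM and 185, 155, 155 and 161 in *Kmt2a*-HET (log2 fold change 0.09), with overlap, whereas it did not overlap between *Kdm5c*-KO and WT. Whether the effect of *Kdm5c* differed with the *Kmt2a* genotype was not tested.

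**Figure D5:**
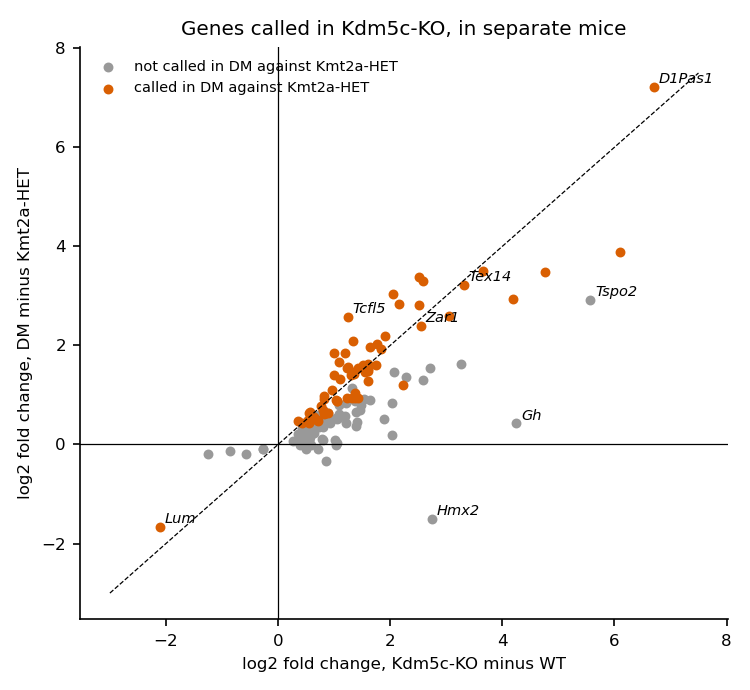
Log2 fold change of DM minus *Kmt2a*-HET against that of *Kdm5c*-KO minus WT for the genes called in the latter, with 1 point per gene, orange where also called in DM against *Kmt2a*-HET, and the line of equal values dashed. Most points lie above 0, with 131 of the 138 higher genes positive, and *Hmx2* lies at -1.51. *E130208F15Rik* lies outside the axes.

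In the hippocampus of the same mice, 133 of the 138 genes had a positive log2 fold change between *Kdm5c*-KO and WT (median 0.86), as did all 25 with the smallest adjusted *p*. Of all 19056 genes tested in the amygdala, 50.04% had a positive value in the hippocampus, with a median of 0.00025. The difference of the *Kdm5c*-KO effect between the regions passed the test for 4 of 32039 genes (0.0125%), of which 3 were among the 144. At an unadjusted *p* under 0.05 there were 639, and edgeR called 0 (460 at an unadjusted *p* under 0.05). *1700003F12Rik* was higher in the amygdala of *Kdm5c*-KO (38, 89.2, 71.5 and 57.1 against 27.7, 29.1, 33.4 and 30.6) and had 10.1, 15.9, 19.4 and 21.4 in *Kdm5c*-KO and 32.7, 23.9, 27.8 and 48.9 in WT hippocampus. In the hippocampus every *Kdm5c*-KO mouse was below every WT mouse for this gene. *Gm26773*, a noncoding gene, had 7.86, 3.75, 7.15 and 2.92 and 18.7, 19.9, 5.55 and 7.85 in the hippocampus, with overlap, and *E130208F15Rik* had 0, 0, 34.7 and 39 and 0, 8.97, 9.99 and 11.3, while its amygdala value rested on 1 library. *Cacng6*, a calcium channel gamma subunit, overlapped in the amygdala (21.4, 61.8, 50.2 and 35.9 in *Kdm5c*-KO and 65.3, 16.5, 22.6 and 10.5 in WT), and had 141, 559.6, 453 and 404 in *Kdm5c*-KO against 31.6, 28.9, 48.9 and 22.7 in WT hippocampus. These 4 genes fall outside the naming rule and were named because they were the ones called. With the mouse as a block 4 genes were called, 2 of them the same, and with only the WT and *Kdm5c*-KO libraries 0 were called.

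For the first 25 genes no difference between regions was called without the mouse as a block, and with it *Acrbp* was called. *Zar1* had 12.3, 7.5, 4.08 and 18.5 in *Kdm5c*-KO and 1.17, 0, 4.44 and 0 in WT hippocampus, and *Sstr5* had 58.4, 7.5, 9.19 and 10.7 and 0, 0, 3.33 and 4.36. *Acrbp*, higher in the amygdala, had 136, 70.3, 106 and 178 and 174, 99.7, 103 and 94.2 in the hippocampus, with overlap (DESeq2 adjusted *p* = 0.546 for the difference between regions, and 0.0698 with the mouse as a block). *Tex14* had 87.5, 80.6, 106 and 102 and 12.9, 5.98, 6.66 and 5.24 there, with no overlap.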

How the data were processed

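Polyadenylated RNA of microdissected amygdala was sequenced from 4 *Kdm5c*-KO and 4 WT adult male mice, with libraries made by a directional oligo-dT kit after ERCC spike-in RNA was added. Per the labels and the study's methods, the authors mapped reads with STAR 2.5.3a to mm10, kept unique reads without duplicates, counted them with featureCounts (Subread 1.5.0) and called genes with DESeq2 1.14.1. The deposited gene and transcript tables name their values expected counts, and 7.13% and 35.2% of values are not whole numbers, so the estimator is not given in the sources used here. Values were rounded. Symbols and mm10 coordinates came from GENCODE M21 (53620 of 53715 genes), and 92 ERCC rows were used only for scaling.

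The Wald test of DESeq2 1.42.0 (R 4.3.3) was run on all 16 amygdala libraries, with genotype as the term and unshrunken log2 fold changes, at an adjusted *p* (Benjamini-Hochberg) under 0.1. Region differences were tested in 1 fit of 32 libraries. Replicate pairs of a group were compared by chi-square per gene (10.1 to 124), so all differed by more than counting error. WT and *Kdm5c*-KO libraries of the same replicate number deviated together (correlations 0.268, 0.135, 0.159 and 0.249 over 16616 genes), so the fit with the replicate block is given beside the count of calls. *Kmt2a*-HET and DM libraries did so for number 1 alone (0.345, 0.049, -0.102 and -0.038). The block still covered these libraries, since it was fitted on all 16. Correlations between libraries of unlike number were not taken. What the number stands for is not given in the labels. In the region comparison both libraries of a mouse carry its label. Normalised counts are counts divided by size factors, and hippocampal values share 1 scale over 32 libraries.

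Genes were named by a rule: *Kdm5c*, the 25 genes with the smallest adjusted *p* whose groups do not overlap, up to 10 lower genes, the 3 called genes with the highest WT mean, called members of the lists, and called genes within 10 Mb of *Kdm5c*. The members and lists were chosen with earlier results of these data known. Alternatives were edgeR 4.0.16, TMM or ERCC scaling, a filter of 10 counts in 4 libraries, an adjusted *p* under 0.05, the betaPrior setting, only the libraries compared, the replicate block, and leaving out each library. The block in edgeR was added after seeing the data. Scripts were tested on simulated data. Intervals are those of promoter shares, and take promoters of the same gene as separate. Floors cover counting error only.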

Additional observations from a re-analysis of the deposited data

Results flagged for a closer look

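Of 156 groups of 4 libraries examined, 13 held 1 library far from the other 3, and chance alone gives about 1 in 20 such groups. *Kdm5c*-KO replicate 3 was highest for *Kdm5c* (1434), *Apoc1* (302), *D1Pas1* (69.5) and *Gh* (523), in normalised counts, and for the summed GABA list (132010) and pituitary list (1153), and lowest for the calcium channel gamma subunit list (10677). *Kdm5c*-KO replicate 1 was highest for the apolipoprotein list (115160). WT replicate 1 was highest for *Gh* (36.6), the calcium channel gamma subunit list (13388) and the activity-induced list (35325), and lowest for the central amygdala list (12811). WT replicate 4 was highest for *D1Pas1*, at 0.956 counts against 0 in the other 3, which is a single count.

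The *Kdm5c*-KO effect differed between hippocampus and amygdala for 4 genes by a test of the difference itself (DESeq2, 32 libraries). On the log2 scale the effect in the hippocampus minus that in the amygdala was 2.997 for *Cacng6* and -2.09 for *1700003F12Rik*, -3.31 for *Gm26773* and -20.7 for *E130208F15Rik*, with adjusted *p* of 0.00785, 0.00798, 0.0864 and 0.0864 in DESeq2. For *E130208F15Rik* it rests on 1 amygdala library at 104 counts, and the difference has no size that can be read, since the other amygdala libraries of both groups are at 0.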

How the results depend on the processing

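For *Kdm5c*-KO against WT, edgeR called 69 genes, ERCC scaling 22, a fit of only the 8 libraries 90, and the replicate block 518 (74 with the replicate block in edgeR, 166 with the replicate block and a low-count filter). Leaving out 1 library gave 95 to 274. For DM against *Kmt2a*-HET, edgeR called 61, ERCC scaling 6 and only the 8 libraries 606 (384 higher and 222 lower). The replicate block, whose numbers do not pair these libraries, called 536 (343 higher and 193 lower), and 75 in edgeR. Fits without 1 library called 90 to 197. ERCC scaling moved the median log2 fold change there to -0.36, against 0.033 in *Kdm5c*-KO against WT. For the region difference, edgeR, ERCC scaling and only the WT and *Kdm5c*-KO libraries called 0, an adjusted *p* under 0.05 called 2, and leaving out 1 library gave 1 to 4. The replicate block by mouse called 4 there. TMM scaling, a low-count filter and the betaPrior setting changed the counts by less than 1.5 times. Over the 45 named genes, 639 of 805 values under alternatives kept direction and call, 165 lost the call, 1 gained it (*Kdm5c* without WT replicate 1) and none reversed. The 11 genes called under every alternative that gave them a value were *Tex14*, *Apoc1*, *Zar1*, *Pnmt*, *Rps4l*, *Pgam2*, *Trim71*, *D1Pas1*, *Bricd5*, *Gm14486* and *Cyct*, the last of which had no value under the low-count filter. The cause of these differences was not tested. For genes at or under the floor of 3 counts in both groups a change was not detectable at this depth.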

Other observations

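Some of the other called genes, chosen after their values were seen, act in germ cells though they are in none of the lists. *Hsf2bp*, a partner of the recombination machinery of meiosis, had 81.9, 52.9, 57 and 42.3 in *Kdm5c*-KO and 5.93, 23.3, 7.55 and 3.82 in WT (DESeq2 adjusted *p* = 2.51e-04). *Ccnb1ip1*, needed for crossovers, had 28.5, 22.5, 29 and 11.6 in *Kdm5c*-KO and 7.91, 1.94, 4.31 and 1.91 in WT (DESeq2 adjusted *p* = 0.00114). *Tcfl5*, a transcription factor of spermatocytes, had 133, 103, 69.5 and 167 in *Kdm5c*-KO and 67.3, 47.6, 17.2 and 66 in WT (DESeq2 adjusted *p* = 0.0566), and *Pld6*, which acts on piRNA precursors, had 90.2, 71.6, 74.4 and 84.6 in *Kdm5c*-KO and 33.6, 62.1, 32.3 and 57.4 in WT (DESeq2 adjusted *p* = 0.0972). Every knockout mouse was above every WT mouse for these 4, and *Pld6* lost the call in edgeR (adjusted *p* = 0.283), as did *Tcfl5* (0.283). In DM against *Kmt2a*-HET, *Hsf2bp*, *Ccnb1ip1* and *Tcfl5* were called higher and *Pld6* was not.

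*Upb1*, an enzyme of pyrimidine breakdown, had 184, 174, 21.2 and 185 in *Kdm5c*-KO and 21.8, 25.2, 19.4 and 60.2 in WT, so that *Kdm5c*-KO replicate 3 sat at the WT level while the other 3 did not (DESeq2 adjusted *p* = 0.00137, edgeR 0.108). In DM it had 183, 273, 187 and 162 and in *Kmt2a*-HET 26.9, 21.5, 31.9 and 31.5. *Hmx2*, a homeobox gene, had 26.1, 29.4, 40.6 and 10.6 in *Kdm5c*-KO and 0, 8.74, 5.39 and 1.91 in WT (DESeq2 adjusted *p* = 0.00692). In separate mice it had 6.89, 11.8, 0.995 and 14 in DM and 26, 23.7, 21.3 and 25 in *Kmt2a*-HET, lower in every DM mouse without passing the test (DESeq2 adjusted *p* = 0.432). Hypothalamus markers summed to 4579 to 8293 in *Kdm5c*-KO and 2004 to 7243 in WT. In DM they summed to 2562, 2554, 2663 and 8857, and in *Kmt2a*-HET to 5880 to 7561. Their part in the *Hmx2* values was not tested.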
